A study of Mus musculus with 9 samples.

Results

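The genes described here encode the proteins that package and splice pre-mRNA: the heterogeneous nuclear ribonucleoproteins (hnRNPs), the serine- and arginine-rich (SR) proteins, the Sm and other proteins of the small nuclear ribonucleoproteins (snRNPs), and the SF3A and SF3B complexes. They were taken by name, as every gene of the array design whose symbol starts with Hnrnp, Hnrp, Srsf, Sfrs, Snrp, Sf3a or Sf3b. This gave 61 of the 36413 gene names of the design, of which 21 were hnRNP genes, 20 were SR or Sfrs-named genes, 12 were Sm and snRNP genes and 8 were SF3 genes. The rule itself uses no measured value, but it was chosen with earlier results of these data known. Each gene was read from 1 probe, the one with the highest mean log2 signal over the 9 arrays.

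The RNA came from extracellular vesicles (EVs), membrane particles that cells shed with RNA and protein inside, collected from mouse embryonic fibroblasts (MEFs), which are primary connective tissue cells. EV total RNA of PBS-treated MEFs (5 arrays) was set against EV total RNA of control MEFs (4 arrays). The saline buffer PBS is the only agent the labels name for the first group, and whether electric pulses were applied with it is not stated, nor are the strain, the age or the duration. The labels do not describe the replicates as separate cultures, so the spread that enters each p-value could be technical.

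Splicing removes introns from pre-mRNA inside the spliceosome, a machine built from snRNPs that assemble anew on each intron. In each of the U1, U2, U4 and U5 snRNPs a ring of Sm proteins holds the snRNA, and the SF3A and SF3B complexes belong to the U2 snRNP, which recognises the branch point. SR proteins bind exons through RNA recognition motifs and recruit the splicing machinery through domains of repeated serine and arginine, while hnRNPs coat nascent transcripts and often oppose exon inclusion. Many hnRNPs also shuttle to the cytoplasm, and in human cells hnRNPA2B1 was described as a protein that sorts microRNAs into EVs. The arrays measured the mRNAs of these proteins in the EVs, not the proteins.

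What the array read of a gene is a stretch of 60 bases, and 4 probes are shown because they lie in coding repeats that define these families while their signals moved differently. They are written 5′ to 3′ in the sense of the mRNA, with serine and arginine codons of the open frame in capitals for the first 3 and glycine codons in capitals for the last.
Srsf2 (mm9, chr11:116713385-116713444, minus strand): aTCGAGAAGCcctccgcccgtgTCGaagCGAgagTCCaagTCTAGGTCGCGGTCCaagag
Srsf5 (mm9, chr12:82050878-82050937, plus strand): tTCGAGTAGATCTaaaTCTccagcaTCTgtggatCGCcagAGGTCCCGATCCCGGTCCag
Sfrs11 (mm9, chr3:157675744-157675803, minus strand): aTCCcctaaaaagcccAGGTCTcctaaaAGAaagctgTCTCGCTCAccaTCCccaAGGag
Hnrnpa3 (mm9, chr2:75500962-75501666, plus strand, across an intron): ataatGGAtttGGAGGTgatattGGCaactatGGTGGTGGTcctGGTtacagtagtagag
Of the 19 complete codons in each frame, 11 coded for serine or arginine in the Srsf2 probe, 13 in the Srsf5 probe and 9 in the Sfrs11 probe, and 8 coded for glycine in the Hnrnpa3 probe. The log2 difference between PBS-treated and control EVs was 0.77 ± 0.19 for the Srsf2 probe, 0.23 ± 0.22 for the Srsf5 probe, -0.68 ± 0.23 for the Sfrs11 probe and -1.32 ± 0.17 for the Hnrnpa3 probe (SE, n = 5 and 4).

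Signals are log2 values with the array's own 75th percentile subtracted, taken over the 8421 probes that were well above background on all 9 arrays, and differences are PBS-treated minus control. Between 16491 and 19233 of 55681 probes were well above background on the PBS-treated arrays, against 12584 to 15553 on the control arrays. The arrays lay on 2 slides that each held both groups, with control replicates 1 and 2 on slide 1 and control replicates 3 and 4, the 2 arrays with fewest such probes, on slide 2. As a check of the cell type, 8 of 11 fibroblast markers were well above background on all 9 arrays and Thy1 on none. The summed level of the fibroblast list was 4.68 to 4.78 in PBS-treated and 3.69 to 4.40 in control EVs, but its genes did not move together, with S100a4, Dcn and Lum higher, Col1a1, Fn1 and Pdgfra lower and a median of -0.38. Of 8 leukocyte and macrophage markers 3 were measured on all arrays, among them Itgam and Cd14, while Cd68, Emr1 and Lyz2 were measured on none, and the summed level was 0.17 to 1.07 in PBS-treated against 1.13 to 1.68 in control EVs, with Cd14 higher by 2.21 and Itgam and Csf1r lower. The 4 endothelial and 6 epithelial markers summed to at most -2.86 and -3.72 in PBS-treated and at most -1.28 and -2.85 in control EVs, with Cdh5, Tek, Cdh1, Epcam and Krt18 measured on no array. Those tested were lower in PBS-treated EVs, the endothelial Kdr (-1.42) and Pecam1 (-1.81) and the epithelial Krt19 (-0.93). Kdr was well above background on all 9 arrays, and Pecam1 on 1 of 5 PBS-treated and 4 of 4 control arrays. The part of these cell types in the results was not tested.

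Most splicing protein mRNAs were higher in EVs of PBS-treated MEFs. Of the 61 genes, 56 were well above background on at least 4 arrays and were tested, 38 were higher, 4 were lower and 14 did not pass (limma, Benjamini-Hochberg adjusted p under 0.05 over all genes). The 38 genes were 67.9% of those tested, against 31.6% of all 14284 genes tested, and the 4 genes were 7.14%, against 20.7%. The median difference was 0.83, a 1.78-fold higher signal, beside a median of -0.02 over all genes tested. In 36 of the 56 genes all PBS-treated arrays lay above all control arrays, and in 4 they all lay below, where 29.5% and 17.6% of all genes tested did so. Since EVs were measured in bulk, more vesicles that carry an mRNA and more of it per vesicle cannot be told apart.

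A filter on dim probes can favour genes that are bright in 1 group, so the counts are also given for the genes well above background on every array. Of 43 such members 30 were higher and 3 lower, against 31.3% higher and 27.6% lower among 7168 such genes, and their median was 0.84 beside -0.07. Within slide 1 alone 38 members were higher and 5 lower, beside 30.9% and 31.3% of all genes, and within slide 2 alone 36 were higher and 7 lower, beside 33.5% and 30.3%. With slide as a block 41 were higher and 8 lower, beside 35.5% and 34.2%.

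**Figure D1:**
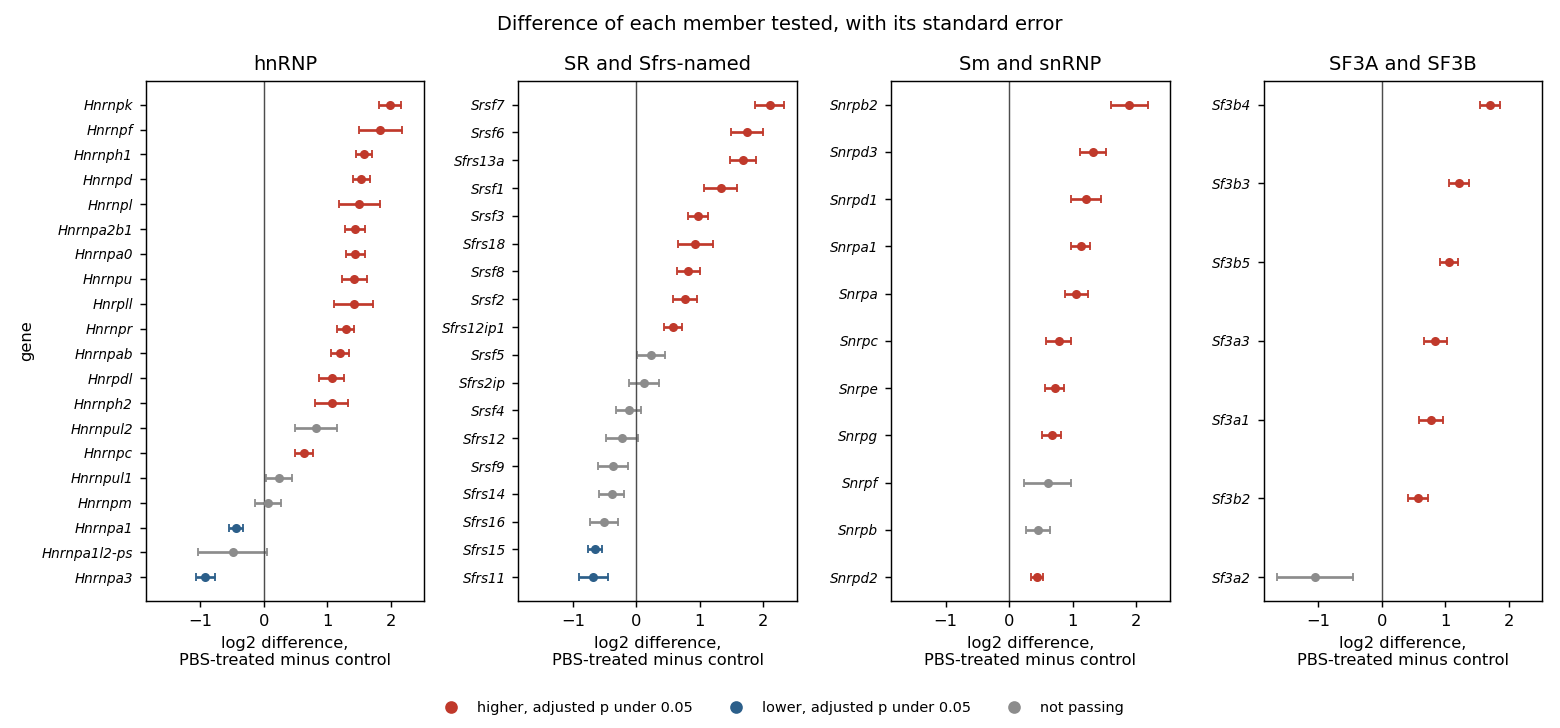
Fitted log2 difference (horizontal axis, PBS-treated minus control) of each of the 56 members tested, by gene (vertical axis) and family, with bars for the standard error. Of these, 38 lie right of 0 and pass adjusted p under 0.05, 4 lie left of 0 and pass, and 14 in grey do not pass.

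How far the members moved depended on the scaling and the background correction. The 75th percentile over all probes moved the median of all genes to 0.39 and scaling to spike-in RNAs moved it to 1.29. Background correction with normexp and an added offset of 50 moved it to -0.51. The members' medians there were 1.23, 2.13 and 0.47, and the split between higher and lower was 29 to 0, 53 to 0 and 28 to 9. Over all genes 24.7% were higher and 9.44% lower with the all-probe percentile, 62.8% and 4.88% with spike-in scaling, and 13.2% and 32.6% with normexp. The offset of 50, also used with quantile normalization, was added before scaling. The 75th percentile of the processed signal was 433.78 to 1025.7 on control and 1094.9 to 2183.5 on PBS-treated arrays. The part of the offset in the normexp values of dim probes was not tested. Under each of the 24 alternatives the members' median lay above that of all genes, by 0.58 to 1.93. Changes below are therefore relative to the array's detected probes.

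**Figure D2:**
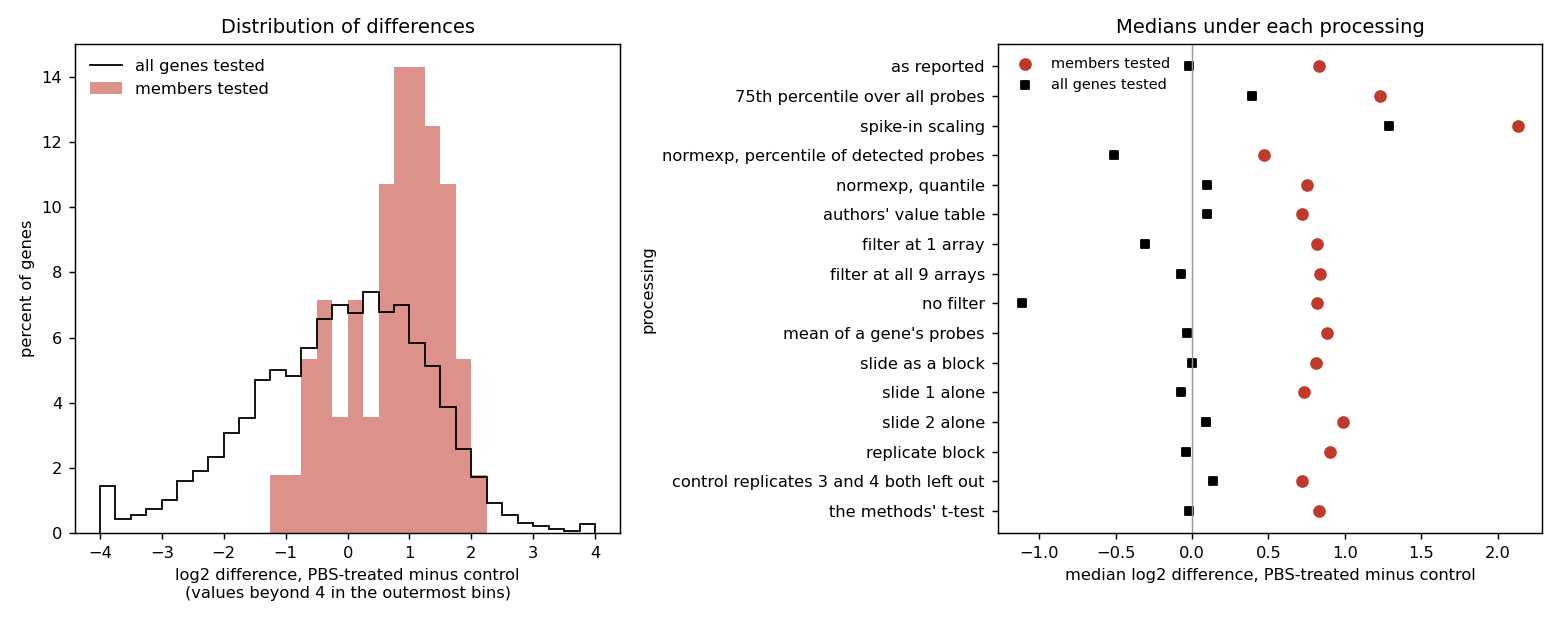
Left, share of genes in percent (vertical axis) by log2 difference, PBS-treated minus control (horizontal axis, bins of 0.25), for the members tested as bars and all genes tested as a line. Right, median difference of the members (circles) and of all genes tested (squares) under each way of processing except those that leave out 1 array, where the members' median is the higher in each row.

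The hnRNP genes held the most rises beyond 2-fold of the 4 families. Of 21 genes 20 were tested, 14 were higher, 2 were lower and 4 did not pass, with a median of 1.24. The 14 were 70.0% of those tested and the 2 were 10.0%, beside 31.6% and 20.7% of all genes tested. At least 2-fold higher were 13 of the 14, 65.0% of those tested beside 20.5% of all genes tested. The median kept its sign under each scaling and background correction, between 0.73 with normexp and 2.54 with spike-in scaling.

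Hnrnpk, whose KH domains bind cytosine-rich RNA, had -1.63, -1.47, -1.59, -1.81 and -1.83 in PBS-treated replicates 1 to 5, against -3.46, -3.27, -4.09 and -3.82 in control replicates 1 to 4. All PBS-treated arrays lay above the control arrays, and the control arrays of slide 2 were the lowest. The difference was 1.99 ± 0.18 (SE, adjusted p = 4.65e-05), a 3.97-fold higher signal.

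Hnrnpf and Hnrnph1 encode related proteins that bind runs of guanine. Hnrnpf had 1.49, 1.48, 1.72, 1.09 and 1.13 in PBS-treated EVs, against 0.11, 0.10, -1.49 and -0.57 in control EVs, a difference of 1.84 ± 0.34 (SE, adjusted p = 0.00185). Hnrnph1 had 1.16, 1.07, 1.04, 1.12 and 1.23 in PBS-treated EVs, against -0.29, -0.27, -0.64 and -0.60 in control EVs, a difference of 1.58 ± 0.12 (SE). The groups did not overlap for either gene. For Hnrnpf the 2 control arrays of slide 2 were farther from each other than the 5 PBS-treated arrays.

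Hnrnpd, also known as AUF1, binds AU-rich elements that mark mRNAs for decay. It had -0.76, -0.68, -0.74, -0.61 and -0.49 in PBS-treated EVs, against -2.03, -2.01, -2.37 and -2.37 in control EVs, and differed by 1.54 ± 0.13 (SE, adjusted p = 3.05e-05). Hnrnpu, a nuclear scaffold protein, had -1.11, -1.0, -0.79, -1.34 and -1.19 in PBS-treated EVs, against -2.16, -2.25, -2.91 and -2.75 in control EVs, and differed by 1.43 ± 0.20 (SE). In both the control arrays of slide 1 stood between the PBS-treated arrays and the control arrays of slide 2.

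Hnrnpa2b1, the protein described in EV sorting, had 0.97, 0.97, 1.23, 0.90 and 0.81 in PBS-treated EVs, against -0.21, -0.22, -0.63 and -0.76 in control EVs. The groups were more than 1 log2 unit apart on each slide, with differences of 1.28 on slide 1 and 1.56 on slide 2. The fit gave 1.44 ± 0.16 (SE, adjusted p = 0.000128), a 2.71-fold higher signal.

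Hnrnpc, which binds uridine tracts of nascent transcripts, differed less. It had 1.0, 1.04, 1.39, 0.94 and 1.16 in PBS-treated EVs, against 0.64, 0.57, 0.28 and 0.37 in control EVs, a difference of 0.64 ± 0.14 (SE, adjusted p = 0.00422). The groups did not overlap. With the 75th percentile over all probes the difference was 1.05 and did not pass (adjusted p = 0.0824, the highest of its alternatives).

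Both falls among the hnRNP genes were of the A/B family of hnRNPs, which can repress exon inclusion. Hnrnpa3 had 2.43, 2.39, 2.13, 2.09 and 2.21 in PBS-treated EVs, against 3.40, 3.36, 2.96 and 2.94 in control EVs, and fell by 0.92 ± 0.15 (log2, SE, adjusted p = 0.00102). Hnrnpa1 had -0.06, -0.16, -0.17, -0.06 and -0.03 in PBS-treated EVs, against 0.51, 0.40, 0.25 and 0.23 in control EVs, and fell by 0.44 ± 0.11 (log2, SE, adjusted p = 0.00766). No array of either gene crossed into the other group. Relative to the spike-in RNAs both were higher instead, by 0.38 for Hnrnpa3 and 0.86 for Hnrnpa1, and neither passed with the 75th percentile over all probes. Hnrnpa1 also did not pass with normexp and quantile normalization, the value table, no filter, the mean of its probes or slide 2 alone (adjusted p = 0.0721, 0.0684, 0.0796, 0.188 and 0.0974). The array design also assigns the Hnrnpa1 probe and the Hnrnpa3 probe to non-coding RefSeq transcripts, so near-identical copies of these genes may share the signal.

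Other members of the same family rose, with 1.44 for Hnrnpa0 and 1.20 for Hnrnpab. The 5 others of the 14 rises, those of Hnrnpl, Hnrpll (now Hnrnpll), Hnrnpr, Hnrpdl (now Hnrnpdl) and Hnrnph2, spanned 1.07 to 1.51, and with normexp Hnrnpl alone among the 14 had the opposite sign (-0.17). The genes that did not pass were Hnrnpm (0.07 ± 0.21), Hnrnpul1 (0.24 ± 0.20), Hnrnpul2 (0.82 ± 0.33) and the pseudogene Hnrnpa1l2-ps (-0.49 ± 0.55). With slide as a block Hnrnpul2 was higher (0.76, adjusted p = 0.0345) and Hnrnpa1l2-ps lower (-0.64, adjusted p = 0.00963). Hnrnph3 was well above background on no array.

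Among the SR and Sfrs-named genes the direction was mixed. Of 20 genes 18 were tested, 9 were higher, 2 were lower and 7 did not pass, and the median was 0.41 but -0.25 with normexp, where 4 were higher and 6 lower. Several of the design's Sfrs symbols are old names of proteins outside the classical SR family. The 10 tested genes named Srsf today, with Sfrs11 counted among them, had a median of 0.87 with 6 higher and 1 lower, and the 8 others a median of -0.06 with 3 higher and 1 lower.

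Srsf7, an SR protein with a zinc knuckle, showed the largest difference of all 56 members tested as processed here. It had -0.59, -0.80, -1.35, -0.69 and -0.68 in PBS-treated EVs, against -2.61, -2.60, -3.42 and -3.07 in control EVs. The groups did not overlap, and PBS-treated replicate 3 was the lowest of its group. The difference was 2.10 ± 0.23 (SE, adjusted p = 0.000109), a 4.30-fold higher signal.

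Srsf6 had -1.99, -1.85, -1.58, -1.76 and -1.69 in PBS-treated EVs, against -2.99, -3.11, -4.11 and -3.85 in control EVs, and differed by 1.74 ± 0.25 (SE). Srsf1, the splicing factor first known as ASF/SF2, had -1.32, -1.12, -1.27, -1.51 and -1.52 in PBS-treated EVs, against -2.27, -2.11, -3.19 and -3.15 in control EVs, and differed by 1.33 ± 0.26 (SE, adjusted p = 0.00246). For both genes the control arrays of slide 2 were about 1 log2 unit below those of slide 1, and the difference was positive within each slide.

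Sfrs13a, now Srsf10, a splicing repressor in its dephosphorylated form, had -4.02, -3.76, -3.62, -3.69 and -3.90 in PBS-treated EVs, against -5.18, -5.11, -5.88 and -5.76 in control EVs. Its probe was well above background on 5 of 5 PBS-treated and 2 of 4 control arrays. The difference of 1.68 ± 0.20 (SE, adjusted p = 0.000161) was -0.04 with normexp and did not pass there (adjusted p = 0.88, the highest of its alternatives).

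Srsf3, the smallest SR protein, and Srsf2, a component of nuclear speckles, rose by less. Srsf3 had -1.03, -1.0, -0.52, -0.69 and -0.49 in PBS-treated EVs, against -1.82, -1.75, -1.83 and -1.46 in control EVs, and differed by 0.97 ± 0.16 (SE, adjusted p = 0.00121). Srsf2 had -2.36, -2.31, -2.02, -1.88 and -1.94 in PBS-treated EVs, against -3.19, -3.16, -2.56 and -2.59 in control EVs, and differed by 0.77 ± 0.19 (SE, adjusted p = 0.00926). Neither gene's groups overlapped, and for Srsf2 the control arrays of slide 2 were the higher of the control arrays. With normexp Srsf2 differed by 0.36 and did not pass (adjusted p = 0.162).

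The falls were of Sfrs11 and of Sfrs15, now Scaf4, which binds the tail of RNA polymerase II. Sfrs15 had -3.94, -4.20, -4.07, -4.16 and -3.92 in PBS-treated EVs, against -3.31, -3.39, -3.50 and -3.44 in control EVs, and fell by 0.65 ± 0.11 (log2, SE, adjusted p = 0.00123). Sfrs11 had -0.95, -0.82, -0.61, -0.38 and -0.43 in PBS-treated EVs, against -0.32, -0.34, 0.51 and 0.33 in control EVs, and fell by 0.68 ± 0.23 (log2, SE, adjusted p = 0.0321). For Sfrs11 the groups lay next to each other, and without control replicates 3 and 4 the difference was -0.31 and did not pass (adjusted p = 0.219). Without any 1 of PBS-treated replicates 1, 2 and 3 or control replicates 3 and 4, Sfrs11 also did not pass. Sfrs15 differed by only -0.12 with normexp and quantile normalization and by -0.06 in the authors' value table, and did not pass in either (adjusted p = 0.639 and 0.814). Relative to the spike-in RNAs Sfrs15 was higher by 0.65, and Sfrs11 differed by 0.62 and did not pass (adjusted p = 0.0703).

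The probe of Srsf5, shown above with the most serine and arginine codons, had -2.28, -2.28, -2.25, -2.31 and -2.24 in PBS-treated EVs, against -2.80, -2.82, -1.77 and -2.64 in control EVs. Control replicate 3 alone lay above the PBS-treated arrays. Srsf5 was described after its values were seen, because of this sequence, and did not pass (0.23 ± 0.22, adjusted p = 0.392), though without control replicate 3 it differed by 0.48 and passed (adjusted p = 0.00581). Srsf4 (-0.12 ± 0.20) and Srsf9 (-0.37 ± 0.24) did not pass either, though with slide as a block Srsf9 was lower (-0.43, adjusted p = 0.0114). Sfrs18, now Pnisr, passed at 0.93 ± 0.28 with overlapping groups. With 0 of 4 control arrays well above background it was at least 1.4-fold higher as processed here. It did not pass with normexp, where its sign turned (-0.48, adjusted p = 0.128), or in 5 other alternatives, among them slide 2 alone (adjusted p = 0.275). Sfrs13b and Sfrs17b were not tested.

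**Figure D3:**
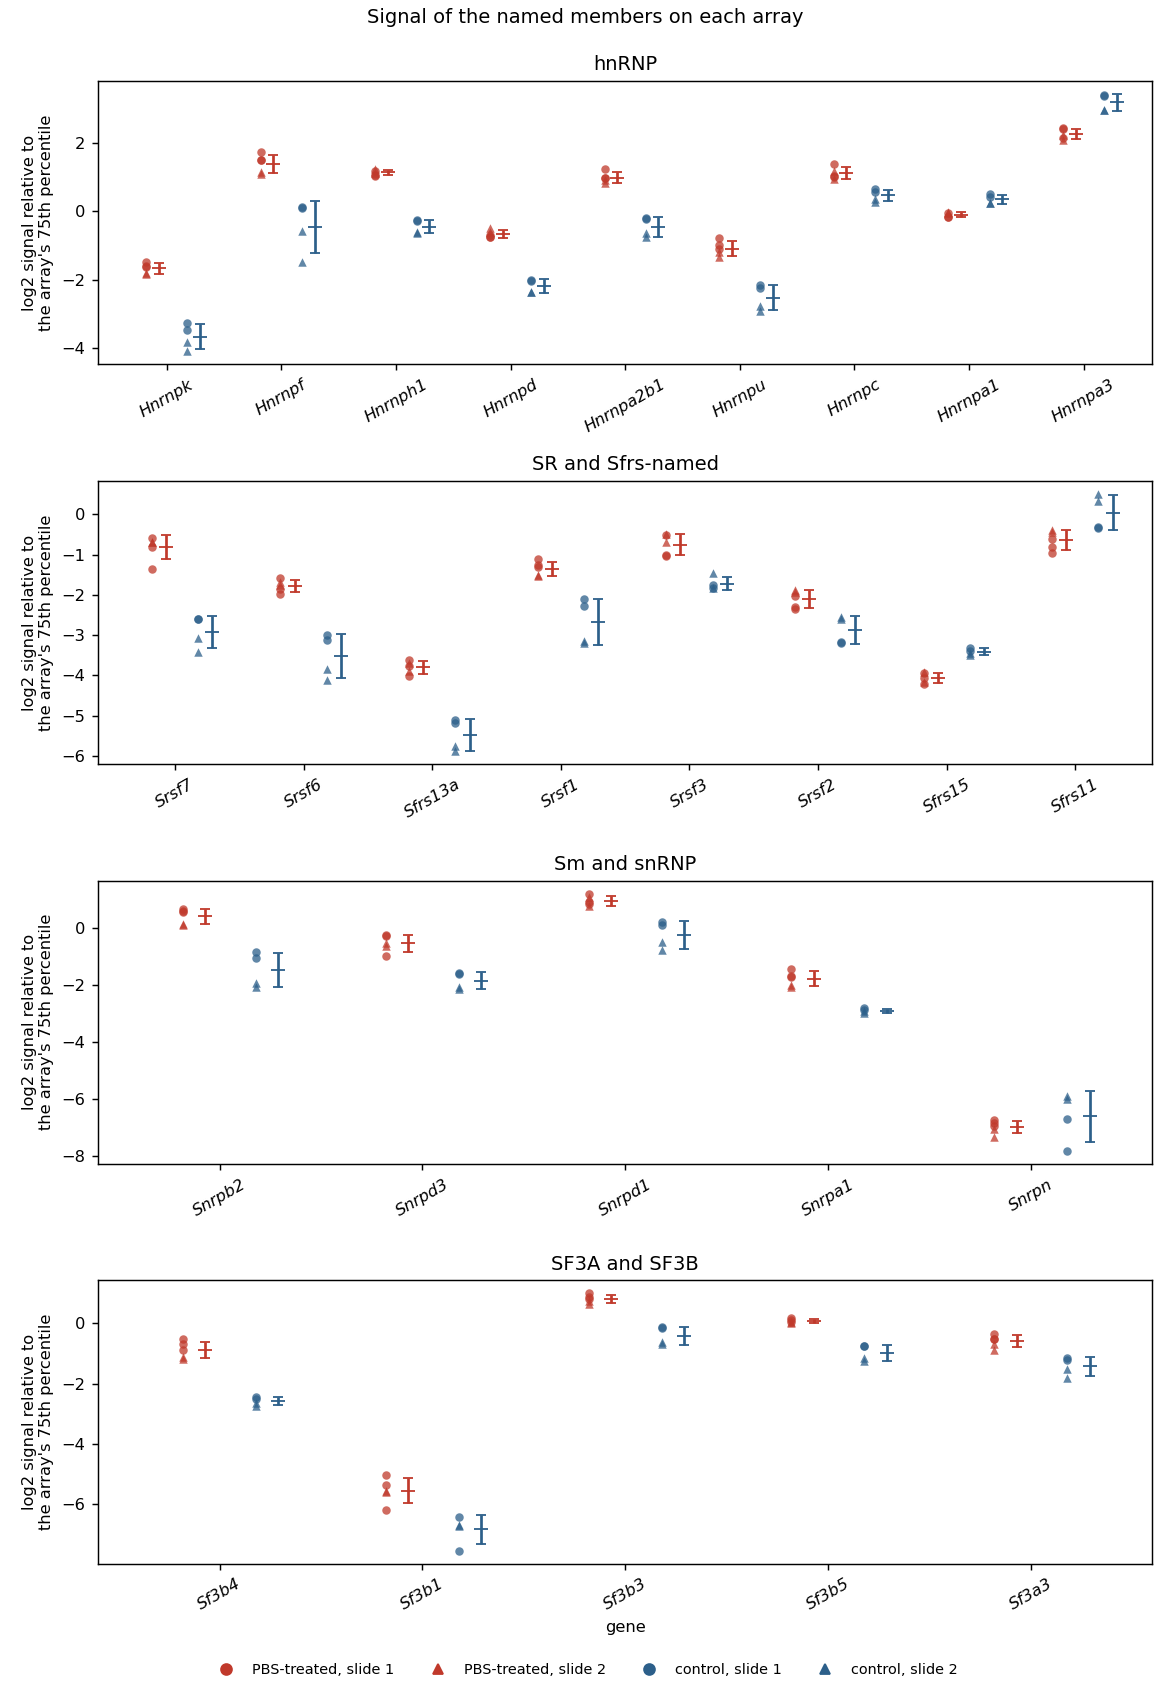
Log2 signal minus the 75th percentile of the array (vertical axis) of the 27 named members (horizontal axis) by family, with 1 point per array, PBS-treated in red and control in blue, circles for slide 1, triangles for slide 2 and bars for the mean ± SD of each group. PBS-treated arrays lie above control arrays except for Hnrnpa1, Hnrnpa3, Sfrs11 and Sfrs15, which lie below, and Snrpn, which overlaps.

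The Sm and snRNP genes moved in 1 direction. Of 12 genes 11 were tested, all 11 well above background on every array, and 9 were higher (81.8%), beside 31.6% of all genes tested. All 11 had a difference above 0, beside 49.6% of all genes tested, with a median of 0.78 and a range of 0.44 to 1.89. The median was 0.62 with normexp and 2.08 with spike-in scaling, and none of the 11 was called lower under any scaling or background correction. The number called higher changed, to 5 with the 75th percentile over all probes, 7 with normexp and 11 with spike-in scaling. Of all genes tested 24.7%, 13.2% and 62.8% were higher there.

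Snrpb2 and Snrpa1 encode proteins that are specific to the U2 snRNP. Snrpb2 had 0.61, 0.57, 0.66, 0.14 and 0.10 in PBS-treated EVs, against -0.85, -1.07, -2.07 and -1.92 in control EVs, and differed by 1.89 ± 0.29 (SE, adjusted p = 0.000663), 3.71-fold. Snrpa1 had -1.43, -1.72, -1.69, -2.02 and -2.06 in PBS-treated EVs, against -2.90, -2.82, -2.93 and -3.00 in control EVs, and differed by 1.13 ± 0.15 (SE). For Snrpb2 slide 2 was lower than slide 1 in both groups, whereas the 4 control arrays of Snrpa1 were close together. The U1 proteins Snrpa and Snrpc rose by 1.06 ± 0.18 and 0.78 ± 0.20, though the groups of Snrpc overlapped.

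The Sm ring was represented by Snrpb, Snrpd1, Snrpd2, Snrpd3, Snrpe, Snrpf and Snrpg, and 5 of the 7 rose. Snrpd3 had -0.25, -0.29, -0.97, -0.54 and -0.64 in PBS-treated EVs, against -1.58, -1.63, -2.15 and -2.06 in control EVs, and differed by 1.32 ± 0.20 (SE, adjusted p = 0.000649). Snrpd1 had 0.90, 1.21, 0.84, 0.77 and 1.08 in PBS-treated EVs, against 0.09, 0.21, -0.50 and -0.78 in control EVs, and differed by 1.21 ± 0.23 (SE, adjusted p = 0.00209). Neither gene's groups overlapped. Snrpe, Snrpg and Snrpd2 rose by 0.72, 0.67 and 0.44, while Snrpf (0.61 ± 0.37) and Snrpb (0.45 ± 0.19) did not pass. With slide as a block both passed (0.52 and 0.49, adjusted p = 0.0421 and 0.00513), and all 11 genes of this family were higher. Within the ring, differences beyond 2-fold were those of Snrpd1 and Snrpd3.

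Snrpn encodes SmN, the Sm protein found mainly in brain and heart, and lies in an imprinted domain. Its probe was well above background on 1 of 5 PBS-treated and on no control array, at -6.76, -6.95, -6.87, -7.05 and -7.35 in PBS-treated against -6.71, -7.84, -5.90 and -6.01 in control EVs. It was not tested, and no fold is given.

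In the SF3 complexes 6 of the 7 genes tested were higher (85.7%), with a median of 0.84, beside 31.6% higher among all genes tested. The groups of these 6 did not overlap, where 29.5% of all genes tested were higher without overlap. Sf3b4 had -0.87, -0.69, -0.53, -1.18 and -1.12 in PBS-treated EVs, against -2.51, -2.43, -2.64 and -2.74 in control EVs, and differed by 1.70 ± 0.16 (SE, adjusted p = 5.87e-05). Sf3b3 had 0.79, 0.88, 0.99, 0.74 and 0.64 in PBS-treated EVs, against -0.14, -0.16, -0.70 and -0.63 in control EVs, and differed by 1.21 ± 0.16 (SE). Both proteins belong to the SF3B complex, and both genes kept the call in all 24 alternatives.

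Sf3b5, the smallest SF3B subunit, had 0.05, 0.16, 0.11, 0.01 and 0.04 in PBS-treated EVs, against -0.77, -0.75, -1.15 and -1.26 in control EVs, and differed by 1.06 ± 0.14 (SE). Sf3a3 had -0.51, -0.53, -0.37, -0.68 and -0.87 in PBS-treated EVs, against -1.14, -1.22, -1.83 and -1.53 in control EVs, and differed by 0.84 ± 0.18 (SE, adjusted p = 0.00403). The groups of both genes stood apart, and for Sf3a3 the slide 2 arrays were the lower in each group. Sf3a1 and Sf3b2 rose by 0.78 and 0.57.

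Sf3a2 was the exception in its complex and did not pass (-1.06 ± 0.60, adjusted p = 0.17). It had -1.81, -2.19, -0.88, -0.31 and -0.50 in PBS-treated EVs, against -1.01, -1.12, 1.0 and 0.84 in control EVs, and in both groups the arrays of slide 2 were the highest. With slide as a block the difference was -0.91 and passed (adjusted p = 0.0186). Sf3b1, whose protein clamps the branch point, was well above background on 3 of 5 PBS-treated and on no control array and was not tested. Its probe had -5.35, -5.03, -6.19, -5.60 and -5.55 in PBS-treated EVs, against -7.54, -6.41, -6.71 and -6.67 in control EVs, which do not overlap, but no fold is given since the bound was under 1. Sf3a2 is named because it was the only SF3 gene that did not pass, after its values were seen.

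The slides split the control arrays in most members. In 43 of the 56 members tested both control arrays of slide 2 lay below both of slide 1, and in 7 they lay above, against 47.2% and 31.5% of all genes tested. Without these 2 arrays 38 members were higher and 6 were lower, with a median of 0.72, beside 29.2% higher, 20.7% lower and a median of 0.14 over all genes. Sf3a1 and Snrpc lost the call as higher there (adjusted p = 0.0525 and 0.0924), and Snrpb and Srsf5 gained it (adjusted p = 0.00338 and 0.00238). Sfrs11 lost the call as lower. Srsf9 (-0.75), Sfrs16, now Clasrp (-0.76), and Sfrs2ip, now Scaf11 (-0.35), gained the call as lower (adjusted p = 0.0279, 0.0395 and 0.0372). Over all 9 arrays Sfrs2ip had the opposite sign (0.12).

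Genes with several probes allow a check within the transcript. The 61 genes had 99 probes, of which 84 were tested, 56 higher and 8 lower, and the 56 were 66.7% of those tested, against 31.5% of all 17765 probes tested. In each of the 20 genes with at least 2 tested probes, all tested probes had the same sign as processed here. No gene had probes called in opposite directions. With normexp the signs differed between probes of Hnrnpa0 (-0.61 and 1.11), Hnrpdl (0.92 and -0.46), Srsf1 (0.79, -0.06 and 0.56) and Srsf3 (0.69, 0.71 and -0.35). In 15 of the 20 genes all tested probes also had the same call.

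Hnrnpa3 had 7 tested probes, all with a difference below 0. Along 1 transcript model the differences were -0.92 ± 0.15 at base 1438, -0.94 ± 0.19 at base 1732, -0.75 ± 0.11 at base 1796, -0.53 ± 0.25 at base 2451 and -0.04 ± 0.24 at base 5126. On another model they were -0.49 ± 0.18 at base 644 and -1.32 ± 0.17 at base 858, the probe over the glycine codons shown above. The first 3 and both of the second model passed, and the last 2 of the first model did not.

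For Srsf1, Srsf2, Srsf3, Srsf6 and Srsf7 the probe farther along the transcript had the larger difference as processed here. With normexp the last minus the first probe was 0.24 for Srsf2 but -0.22, -1.04, -0.69 and -0.98 for Srsf1, Srsf3, Srsf6 and Srsf7. Without it the Srsf2 difference was 2.33 ± 0.25 at base 1060, against 0.77 ± 0.19 at base 728 in the serine and arginine codons. For Srsf1 the difference was 2.36 ± 0.44 at base 5101 and 1.96 ± 0.14 at base 5019, against 1.33 ± 0.26 at base 2552. These later probes of Srsf2 and Srsf1 were well above background on 7, 7 and 5 of the 9 arrays, and the earlier ones on all 9. For Hnrnpa0, an hnRNP, the difference was 1.44 ± 0.15 at base 2487, against 0.11 ± 0.15 at base 616, which did not pass. Hnrnpk went the other way as processed here, with 2.55 ± 0.45 at base 1391 and 1.99 ± 0.18 at base 1451. These 2 probes were well above background on 7 and 8 of the 9 arrays. With normexp the later Hnrnpk probe had the larger difference (0.51 at base 1391 and 1.03 at base 1451).

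Over the members' 17 transcripts with tested probes at least 60 bases apart, the last probe had the higher difference in 13, which is 76.5%, against 57.3% of all 1631 such transcripts. With normexp it was 8 of the 17, or 47.1%, against 61.1%. Where both probes were well above background on all 9 arrays it was 7 of 9 under either correction, against 57.5% of 591 transcripts as processed here. The count is given as a description, since the probes of a transcript share their arrays and it changed with the background correction.

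**Figure D4:**
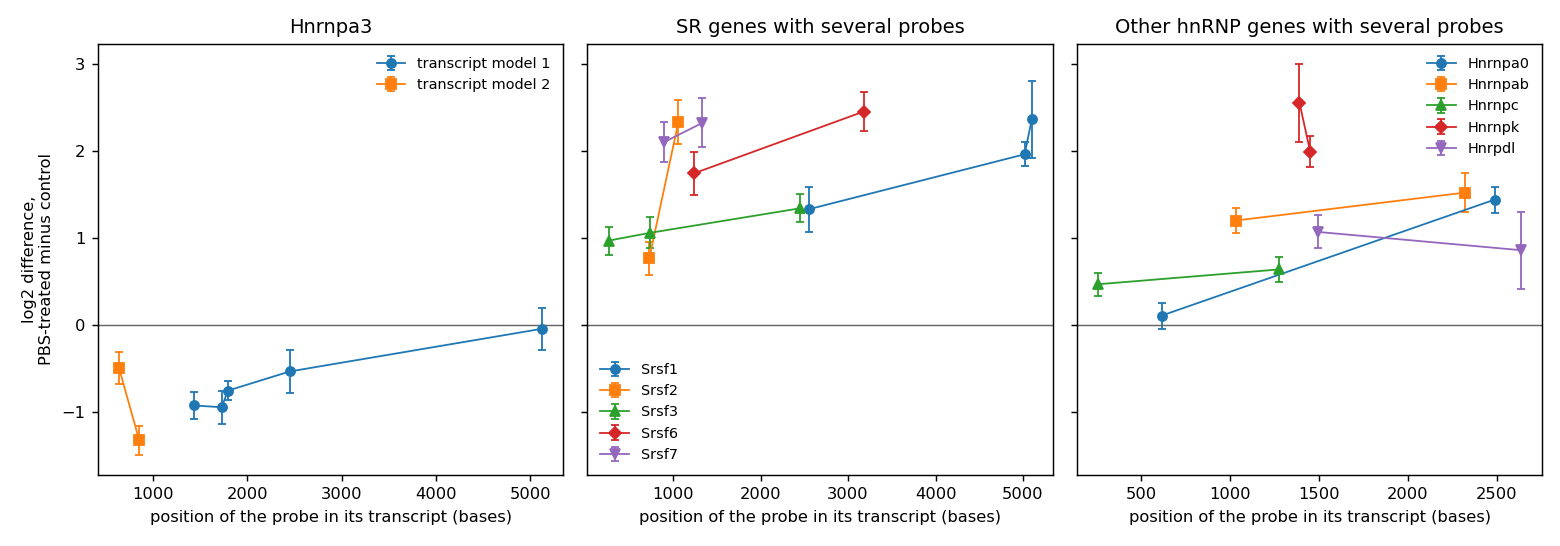
Log2 difference of single probes (vertical axis, PBS-treated minus control, bars for the standard error) by the probe's position in its transcript in bases (horizontal axis), joined within a transcript model. Hnrnpa3 probes lie below 0 at every position, and the SR genes reach their highest values at their last probe, which with normexp holds for Srsf2 but not for Srsf1, Srsf3, Srsf6 and Srsf7.

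Splicing genes outside the naming rule, taken from lists of known function, were mostly higher as well, read beside the 31.6% higher and 20.7% lower among all genes tested. Of 57 other spliceosome proteins 53 were tested, 33 were higher (62.3%), 4 were lower (7.55%) and the median was 0.69, but 0.28 with normexp. Smndc1, a Tudor domain protein of the U2 snRNP, rose by 2.62 ± 0.16 (SE). The tri-snRNP proteins Sart1 and Prpf4 fell by 1.57 ± 0.16 and 1.13 ± 0.15 (log2, SE), though relative to the spike-in RNAs Sart1 did not pass (-0.27) and Prpf4 had the opposite sign (0.17). With normexp Smndc1 did not pass (0.59).

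Of 41 further splicing regulators 40 were tested, 26 were higher (65.0%), 6 were lower (15.0%) and the median was 1.12, but 0.32 with normexp. Mbnl3, of the muscleblind family, rose by 3.36 ± 0.32 (SE), and Pspc1, a paraspeckle protein, was at least 2.90-fold higher as processed here. Rbm9, now Rbfox2, which binds the sequence GCAUG, fell by 2.79 ± 0.25 and Taf15 fell by 1.83 ± 0.31 (log2, SE). The call of Rbm9 stood in all 24 alternatives and that of Mbnl3 in the 23 in which it was tested. Mbnl3 was well above background on 5 of 5 PBS-treated and 2 of 4 control arrays, so the filter at all 9 arrays left it out. Pspc1 did not pass with normexp (0.15), nor Taf15 with spike-in scaling (-0.53).

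A list of snRNP assembly genes was also mostly higher as processed here. It held genes of the SMN complex and the PRMT5 methylosome, and also Snupn, Tgs1 and Coil. Of 15 genes 14 were tested, 10 were higher (71.4%), none was lower and the median was 0.96, but 0.10 with normexp. Only 5 of the 15 were well above background on all 9 arrays. With normexp Gemin6 (0.96) and Smn1 (0.43) were called higher, Coil (-0.84) and Gemin4 (-0.97) lower, and the others did not pass. Over all genes 13.2% were higher and 32.6% lower with normexp. Gemin6, a subunit of the SMN complex, rose by 2.45 ± 0.42, and Snupn, the import adaptor of the m3G cap of snRNAs, rose by 1.94 ± 0.34 (SE), though with normexp it did not pass (0.36).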

How the data were processed

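Per the labels, EV total RNA was reverse transcribed, transcribed into cyanine 3 labelled cRNA and hybridised to 1-colour Agilent 8x60K arrays. The authors quantified scans with Agilent Feature Extraction 10.7.3.1 and deposited the processed, mean and background intensity of each spot, linear and not normalized, with marks for spots well above background. A deposited table of log2 values, whose column medians were all 5.97, ranked probes as the mean signal did (Spearman 1.0). The authors made it with their SLIMarray pipeline, whose normalization and centring settings are not given in the sources used here, and it served as an alternative.

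Control, non-uniform and population-outlier spots were left out, and spots of a probe were averaged. Log2 processed signals were scaled to each array's 75th percentile over probes well above background on all arrays. Genes, taken by the design's GeneName, were tested if their probe was well above background on at least 4 arrays (14284 genes), with limma 3.58.1 in R 4.3.3, two-sided, all 9 arrays, Benjamini-Hochberg adjusted p under 0.05. The fit was tested on simulated data.

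The RefSeq gene table renamed 13 members. Named members were, per family, up to 4 of the largest called rises and falls without overlap, and Hnrnpa2b1, Hnrnpa1, Hnrnpc, Hnrnpk, Hnrnpu, Srsf1, Srsf2, Srsf3, Snrpn and Sf3b1. From each other list up to 2 of each were named. One gene that this rule names is not reported here. The members and lists were chosen with earlier results of these data known. "At least" folds set the bright group's mean against, per array, the higher of the dim probe's signal and the lowest signal well above background. They hold only as processed here and are not bounds under the alternatives. Genome coordinates are those of the design on mm9. Exon and UTR annotation was not used here. The number of arrays limits precision. Summaries were made in Python 3.11.15 (pandas 2.3.3 and numpy 2.4.6), and figures with matplotlib 3.10.9.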

Additional observations from a re-analysis of the deposited data

Results flagged for a closer look

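Among the 54 groups of arrays checked, 2 for each of the 27 named members, 1 held an array far from the rest. For Srsf7, PBS-treated replicate 3 stood at -1.35, while the other 4 PBS-treated arrays stood between -0.80 and -0.59 (log2, after subtraction of each array's 75th percentile). Its gap to the nearest array was 0.714 of the range of the group. Chance gives about 1 such group in 20.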

How the results depend on the processing

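The count of higher members stayed within 1.5 times of 38 under all 24 alternatives, from 28 with normexp scaled to the 75th percentile (percentile-scaled normexp) to 53 with spike-in scaling. The 4 lower members became 0 with the 75th percentile over all probes, 0 with spike-in scaling, 2 each with normexp and quantile normalization, the authors' value table and no filter, 9 with percentile-scaled normexp, 8 with slide as a block and 7 on slide 2 alone. The median of 0.83 became 1.23, 2.13 and 0.47 with the all-probe percentile, spike-in scaling and percentile-scaled normexp. These scalings and corrections move the median of all genes too, and the cause of the rest was not tested. Leaving out 1 array at a time gave 37 to 39 higher and 3 to 4 lower members with medians of 0.79 to 0.94. With the replicate block 37 were higher and 5 lower, with a median of 0.90. Deviations of equally numbered arrays correlated at 0.70, 0.73, -0.54 and 0.74, and the 2 arrays numbered 3 lay on different slides. The arrays numbered 1, 2 and 4 shared a slide with their counterpart, so pairing by number and the slide cannot be told apart here.

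Of 37 named genes 20 kept direction and call under every alternative that was run. Signs turned with spike-in scaling for Hnrnpa1 (0.86), Hnrnpa3 (0.38), Sfrs11 (0.62), Sfrs15 (0.65), Prpf4 (0.17) and Sf3a2 (0.24), with percentile-scaled normexp for Sfrs13a (-0.04) and Srsf5 (-0.02), and on slide 2 alone for Srsf5 (-0.07). Of the 56 members tested 43 were well above background on every array.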
